A study of Bos taurus with 6 samples.

Results

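Transcripts of 4 inflammatory cytokines, IL6, CXCL8, IL1B and TNF, and of the prostaglandin-forming enzyme PTGS2 were measured in cultured bovine (Bos taurus) fibrocytes. The 5 genes were chosen by Ensembl gene ID and not by a threshold on their values, though with earlier results of these data known. All 5 were found among the 36075 gene IDs of the count tables. They are IL6 (ENSBTAG00000014921), CXCL8 (ENSBTAG00000019716), IL1B (ENSBTAG00000001321), TNF (ENSBTAG00000025471) and PTGS2 (ENSBTAG00000014127). The symbols came with the IDs in the choice of genes, since the count tables themselves carry IDs without names. Fibrocytes are blood-borne cells that combine traits of leukocytes and of fibroblasts. The nucleated cells of blood were plated on gelatin (0.1%) and kept in 1 of 2 media. Fibroblast medium (FbM) was high-glucose DMEM with non-essential amino acids, penicillin-streptomycin and 20% fetal bovine serum. Fibrocyte medium (FcM) was this same base with 6 additions. These were dexamethasone (10 nM), a synthetic glucocorticoid, ascorbic acid 2-phosphate (0.1 mM), PDGF-BB and EGF (10 ng/mL each), the TGF-β receptor inhibitor A83-01 (0.5 μM) and the GSK-3 inhibitor CHIR99021 (1.5 μM). The media differ in all 6 additions at once, so their separate parts cannot be told apart. Among the study's stated aims is to find a medium in which the inflammatory response is lower.

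IL1B and TNF are cytokines that start and amplify inflammation, and their receptors signal through NF-κB and MAP kinases. CXCL8, IL6 and PTGS2 are well-known targets of that signalling. Glucocorticoids are known to repress many genes of this kind through the glucocorticoid receptor. IL6 is also made by fibroblasts and other stromal cells.

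Each medium had 3 RNA libraries, named here by their titles, FbM_1944, FbM_1951 and FbM_1962 against FcM_1944, FcM_1951 and FcM_1962. The numbers in the titles are shared between the media, and the labels do not say what they stand for. Nor do the labels say that cultures were from different animals, and p-values then cover no more than the spread among these 6 libraries, which may be technical. Depth was 15925280 to 19149516 gene reads per library, and every gene of the 5 had reads in every library, from 19 reads for IL6 in FbM_1944 to 14382 for CXCL8 in FbM_1962. Levels are in CPM, the read counts of a gene scaled to the library's gene reads with TMM, and are not corrected for transcript length, so levels are compared between libraries and not between genes. Counting intervals (95%, exact Poisson) cover counting error only. Across the tested genes, which are not independent replicates, Spearman correlations of log2 CPM put FcM_1962 nearer to the FbM libraries (0.915 to 0.931) than to FcM_1951 (0.879) and FcM_1944 (0.806), which correlated with each other at 0.951. With FcM_1962 edgeR called 495 genes and without it 4394, and results that depend on it are given with and without it. Genes that mark leukocytes, fibroblasts or other cells were not analysed here for lack of names, so the labelled cell type was not checked. In bulk RNA, fewer cells of a type and less RNA per cell cannot be told apart.

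IL1B and CXCL8 stood lower in every FcM library than in any FbM library, as did 17.2% of the tested genes. TNF, like these 2 genes, stood lower in FcM within each number, as did 28.0% of the tested genes. IL6 and PTGS2 went both ways. None of the 5 passed the main test between the media (edgeR quasi-likelihood test with Benjamini-Hochberg adjustment over 14211 genes, false discovery rate 0.05), a threshold that 3.48% of the tested genes passed. At an unadjusted p under 0.05 there were 2 of the 5, CXCL8 and IL1B, beside 27.7% of the tested genes. The DESeq2 Wald test called the same 2 genes (19.9% of its tested genes), and limma-voom called 0 (2.82%). The fitted log2 fold change, FcM minus FbM, was below 0 for 4 of the 5 genes, beside 48.2% of the tested genes, and its median was -1.34 over the 5 and 0.04 over all tested genes. With the shared number as a block, edgeR called 1 of the 5, IL1B, as lower in FcM, beside 1.91% of tested genes in that direction.

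**Figure D1:**
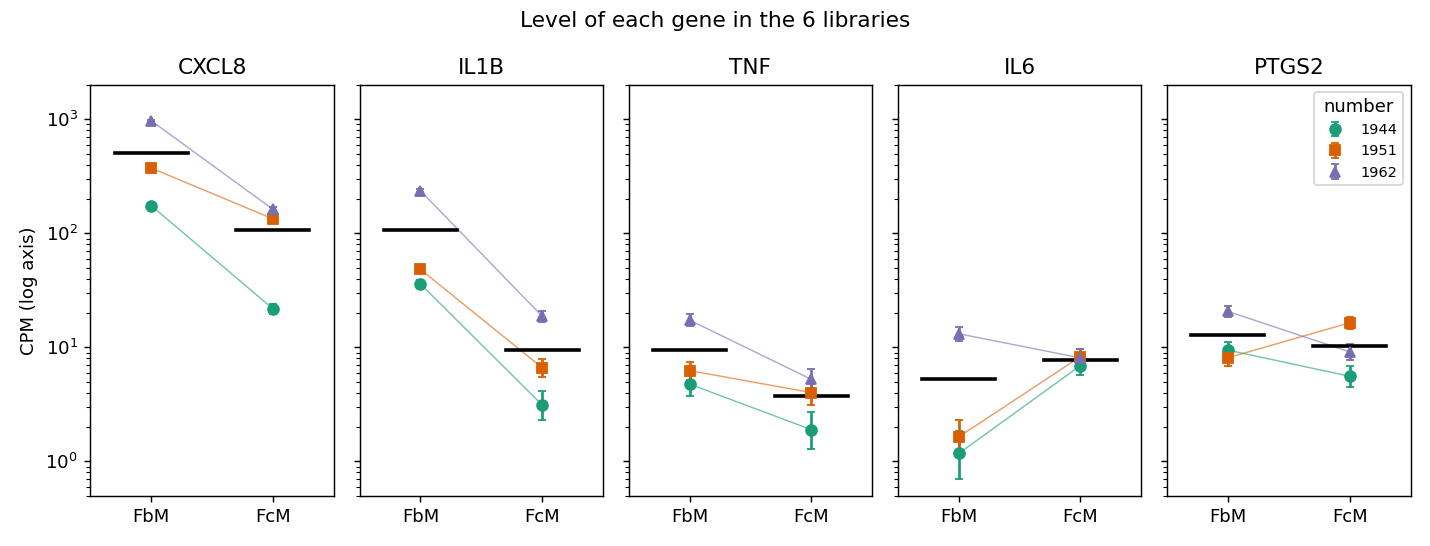
Level of each gene (CPM, 1 log axis for all panels) in the 3 FbM and 3 FcM libraries; points are libraries with 95% counting intervals, thin lines join libraries of the same number, and black bars are means. For CXCL8 and IL1B every FcM point lies below every FbM point, while the IL6 points of FcM lie close together between 6.92 and 8.29 CPM.

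IL1B, which encodes interleukin-1β, a cytokine made mainly by monocytes and macrophages, had the lowest fitted change of the 5. It stood at 35.9 CPM in FbM_1944, 48.2 CPM in FbM_1951 and 236 CPM in FbM_1962. In FcM it stood at 3.12 CPM in FcM_1944, 6.62 CPM in FcM_1951 and 18.7 CPM in FcM_1962. The media did not overlap, and the lowest FbM library was 1.92 times the highest FcM library. In both media the level was highest in the library numbered as in FbM_1962 and lowest in the one numbered as in FbM_1944. The mean IL1B level (± SD, n = 3) was 107 ± 112 CPM in FbM, against 9.49 ± 8.19 CPM in FcM, so the FbM mean was 11.2 times the FcM mean. The fitted log2 fold change was -3.49 (SE 0.976, 95% interval -5.81 to -1.17), and 1.77% of tested genes had a lower value. The edgeR adjusted p was 0.0930, which does not pass.

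The call of IL1B depended on how the libraries entered the fit. With the number as a block the fitted change was -3.34 (SE 0.254) and the edgeR adjusted p was 0.0237. Without FcM_1962 it was -4.45 with an edgeR adjusted p of 0.0185, in a fit where 28.6% of tested genes passed. That fit keeps FbM_1962 without the FcM library of its number. With both FbM_1962 and FcM_1962 left out the fitted change was -3.09 (edgeR adjusted p = 0.0122), beside 19.3% of tested genes called. The DESeq2 Wald test with all 6 libraries gave -3.49 and an adjusted p of 0.000521. Over 20 alternatives the edgeR, DESeq2 and limma adjusted p ranged from 1.78e-07 to 0.482, and 6 of them called the gene. The lowest came from DESeq2 without FcM_1962, a fit added after seeing the data in which 36.6% of tested genes passed. Apart from the block and DESeq2 fits with all 6 libraries, every call was made with FcM_1962 left out. All 20 alternatives gave a value below 0, a sign that groups without overlap fix in advance. Without FbM_1962, the library with the highest IL1B, the fitted change was -2.15 and the edgeR adjusted p was 0.276.

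CXCL8, the neutrophil-attracting chemokine also called interleukin-8, stood at 175 CPM in FbM_1944, 373 CPM in FbM_1951 and 969 CPM in FbM_1962. In FcM it stood at 21.7 CPM in FcM_1944, 134 CPM in FcM_1951 and 162 CPM in FcM_1962. The media did not overlap, but the gap was narrow, with the lowest FbM library at 1.08 times the highest FcM library. As for IL1B, FbM_1962 and FcM_1962 were the highest of their media and FbM_1944 and FcM_1944 the lowest. The mean CXCL8 level (± SD, n = 3) was 506 ± 413 CPM in FbM, against 106 ± 74.2 CPM in FcM. The fitted log2 fold change was -2.25 (SE 0.878, 95% interval -4.34 to -0.17), with an edgeR adjusted p of 0.157. The call was gained in 2 of 20 alternatives. These were the DESeq2 Wald test (adjusted p = 0.0257) and the edgeR fit with the number as a block and without FcM_1962 (adjusted p = 0.00769). The latter fit was added after seeing the data, and 31.8% of tested genes passed in it. FbM_1962 has no partner in that block, so its value for CXCL8 rests on the other 2 numbers. With the block and all 6 libraries the edgeR adjusted p was 0.0558. Without FbM_1962 the fitted change was -1.37 (edgeR adjusted p = 0.403).

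Genes without overlap between the media and lower in FcM numbered 2 of the 5, beside 17.2% of the tested genes, and 0 of the 5 had the reverse pattern, beside 15.7%. For IL1B and CXCL8 the exact two-sided permutation test on log2(CPM + 1) gave p = 0.1, and no smaller p can arise with 3 libraries on each side. It gave exact p = 0.2 for TNF, exact p = 0.4 for IL6 and exact p = 0.6 for PTGS2. Without FcM_1962, TNF also did not overlap, which made 3 of the 5 lower in FcM, beside 28.1% of the tested genes.

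TNF, the tumour necrosis factor, stood at 4.75 CPM in FbM_1944, 6.25 CPM in FbM_1951 and 17.3 CPM in FbM_1962. In FcM it stood at 1.90 CPM in FcM_1944, 4.01 CPM in FcM_1951 and 5.24 CPM in FcM_1962. The media overlapped through a single pair, as FcM_1962 lay above FbM_1944, and the counting intervals of these libraries (4.18 to 6.48 and 3.75 to 5.94 CPM) overlap as well. TNF kept the order of IL1B and CXCL8 in both media, with FbM_1962 and FcM_1962 highest and FbM_1944 and FcM_1944 lowest. The mean TNF level (± SD, n = 3) was 9.44 ± 6.86 CPM in FbM, against 3.71 ± 1.69 CPM in FcM. The fitted log2 fold change was -1.34 (SE 0.629, 95% interval -2.83 to 0.16), with an edgeR adjusted p of 0.220. As a fold of the FbM level over the FcM level, this interval runs from 0.897 to 7.13. Its low end stands for a higher level in FcM. With the number as a block the fitted change was -1.23 (95% interval -2.23 to -0.22), which leaves out 0, but the edgeR adjusted p over all genes was 0.136 and did not pass. None of 20 alternatives called TNF, and the lowest adjusted p among them was 0.0513 (DESeq2 without FcM_1962). Without FbM_1962 the fitted change was -0.57.

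IL6, which encodes a cytokine of the acute-phase response, showed another pattern than the other 3 cytokines. It stood at 1.17 CPM in FbM_1944, 1.64 CPM in FbM_1951 and 13.1 CPM in FbM_1962. In FcM it stood at 6.92 CPM in FcM_1944, 8.29 CPM in FcM_1951 and 8.07 CPM in FcM_1962. Thus 2 FbM libraries lay below all FcM libraries and the other, FbM_1962, lay above them all. The low FbM values rest on 19 and 32 reads, with counting intervals of 0.706 to 1.83 CPM and 1.12 to 2.32 CPM, both below the lowest FcM interval, which starts at 5.70 CPM. The mean IL6 level (± SD, n = 3) was 5.32 ± 6.78 CPM in FbM, against 7.76 ± 0.736 CPM in FcM. The fitted log2 fold change was 0.55 (SE 0.895, 95% interval -1.57 to 2.68), with an edgeR adjusted p of 0.714.

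The size of the IL6 difference depended most on FbM_1962. Without it the fitted change was 2.45 (edgeR adjusted p = 0.154), and with each other FbM library left out it was 0.07 (without FbM_1944) and 0.12 (without FbM_1951). With FbM_1962 and FcM_1962 both left out, IL6 was called as higher in FcM, at 2.44 (edgeR adjusted p = 0.0345), beside 19.3% of tested genes called in that fit. It was also called with the block and without FcM_1962, at 2.44 (edgeR adjusted p = 0.00769), beside 31.8%. Once FcM_1962 is left out, FbM_1962 has no partner in that block, so this value rests on the other 2 numbers. Fits without FcM_1962 alone gave 0.52, near the value with all 6 libraries.

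PTGS2, also known as cyclooxygenase-2, is the inducible enzyme that starts prostaglandin synthesis from arachidonic acid. It stood at 9.45 CPM in FbM_1944, 8.10 CPM in FbM_1951 and 20.6 CPM in FbM_1962. In FcM it stood at 5.57 CPM in FcM_1944, 16.4 CPM in FcM_1951 and 9.12 CPM in FcM_1962. The media overlapped widely, with FcM_1951 above 2 of the FbM libraries. The mean PTGS2 level (± SD, n = 3) was 12.7 ± 6.87 CPM in FbM, against 10.4 ± 5.53 CPM in FcM. The fitted log2 fold change was -0.29 (SE 0.536, 95% interval -1.56 to 0.99), with an edgeR adjusted p of 0.752. Its sign turned in 4 of 20 alternatives, among them the fits without FbM_1962 (0.24) and without FcM_1944 (0.01). As a fold of the FbM level over the FcM level, the interval spans 0.505 to 2.95. Its low end stands for a higher level in FcM, so these libraries do not fix a direction for PTGS2.

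**Figure D2:**
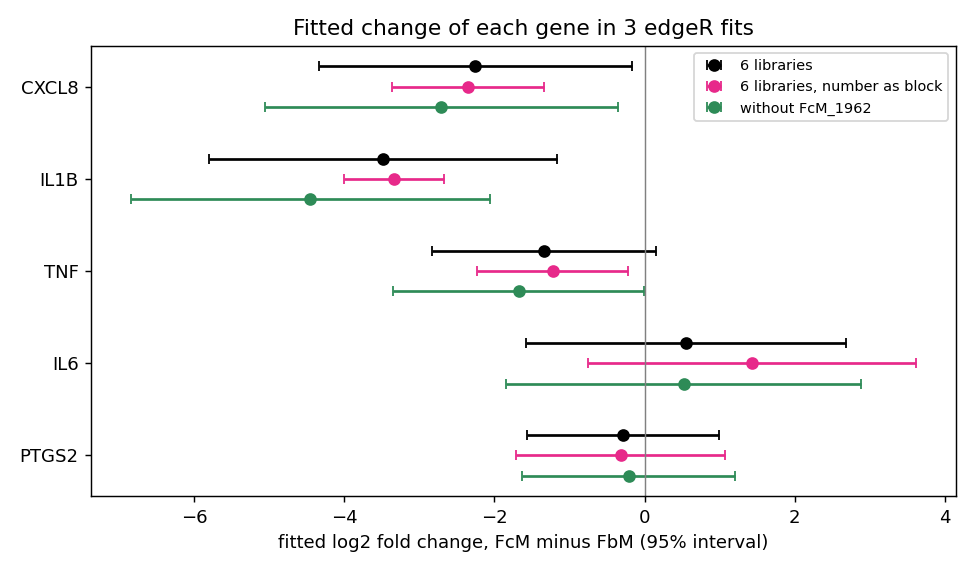
Fitted log2 fold change of each gene (FcM minus FbM, horizontal axis) with its 95% interval in 3 edgeR fits: all 6 libraries, all 6 with the number as a block, and without FcM_1962. The IL1B interval narrows with the block, from -5.81 to -1.17 without it to -4.01 to -2.68 with it, while the IL6 and PTGS2 intervals include 0 in all 3 fits.

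Libraries that share a number deviated together across genes, with correlations of 0.25 to 0.40. Between unlike numbers they were -0.37 to 0.09. On this check of the same data, the media were also compared within each number. The IL1B level of FbM_1944 was 11.5 times that of FcM_1944, that of FbM_1951 was 7.28 times that of FcM_1951, and that of FbM_1962 was 12.6 times that of FcM_1962. In the same order of libraries, the FbM level of CXCL8 was 8.03, 2.79 and 5.98 times the FcM level. TNF showed smaller ratios in the same direction, 2.50, 1.56 and 3.31 times. FcM lay below FbM within all 3 numbers for these 3 genes, a pattern shown by 28.0% of the tested genes.

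IL6 and PTGS2 had ratios on both sides of 1. IL6 in FcM_1944 was 5.90 times its level in FbM_1944 and in FcM_1951 5.06 times that in FbM_1951, but in FcM_1962 it was 0.614 times that in FbM_1962. PTGS2 in FcM_1951 was 2.03 times its level in FbM_1951, but it was 0.590 times in FcM_1944 and 0.442 times in FcM_1962 the level of the FbM library of the same number. In all 15 comparisons of 2 libraries the 95% counting interval of the log2 ratio left out 0, so counting error alone is smaller than each of these differences. With 1 library per medium and number, the difference between numbers has no replicates and was not tested.

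**Figure D3:**
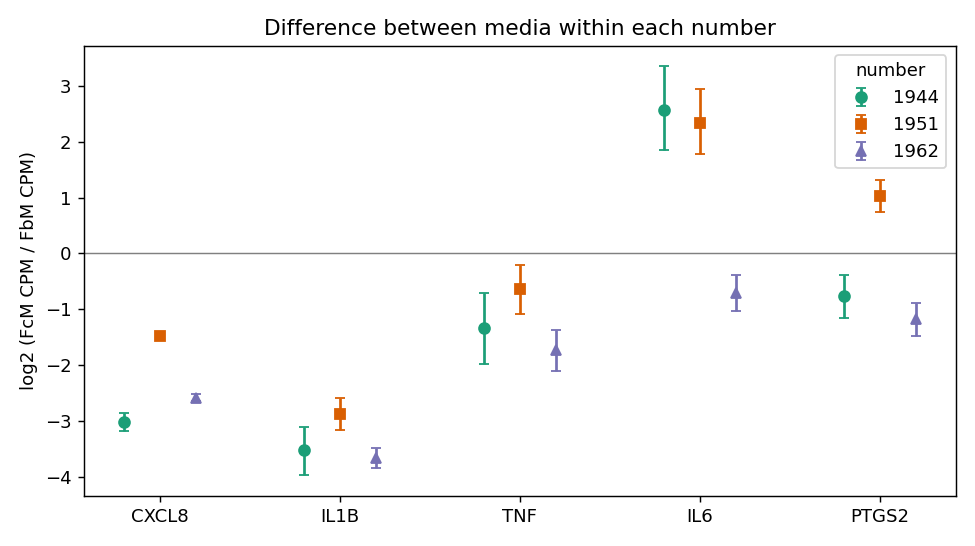
Log2 ratio of the FcM level to the FbM level within each number, for each gene, with 95% counting intervals (exact binomial); the line at 0 marks equal levels. CXCL8, IL1B and TNF lie below 0 for all 3 numbers, IL6 lies above 0 in 2 of the 3 and PTGS2 in 1 of the 3, FcM_1951 against FbM_1951.

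The FcM libraries lay at different distances from the FbM mean. On the log2 CPM scale IL1B in FcM_1944, FcM_1951 and FcM_1962 differed from the FbM mean by -4.52, -3.46 and -1.98, so FcM_1962 was nearest to that mean. CXCL8 differed by -4.19, -1.57 and -1.30 and TNF by -2.01, -0.98 and -0.61 in the same order of libraries. For these 2 genes FcM_1951 lay beside FcM_1962, and FcM_1944 was the library farthest from the FbM mean. That mean includes FbM_1962, the highest FbM library of all 5 genes. Against the FbM library of the same number, the log2 ratios of IL1B were -3.52, -2.86 and -3.65 in the same order. Those of CXCL8 were -3.01, -1.48 and -2.58, and those of TNF -1.32, -0.64 and -1.725. By this measure FcM_1962 differed most of the 3 for IL1B and TNF, and FcM_1944 for CXCL8. IL6 lay above the FbM mean by 1.18, 1.43 and 1.40, with all 3 libraries close together. Without FcM_1962 the FbM mean was 21.9 times the FcM mean for IL1B, against 11.2 times with it, 6.51 against 4.78 times for CXCL8, and 3.20 against 2.54 times for TNF. Leaving out FcM_1962 alone keeps FbM_1962, so these larger ratios are not balanced over the numbers. For IL1B, 21.9 times exceeds the ratio within each number, which was 11.5, 7.28 and 12.6 times. PTGS2 differed from the FbM mean by -1.05 in FcM_1944, 0.49 in FcM_1951 and -0.35 in FcM_1962.

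The order of the libraries within a medium was much the same from gene to gene. FbM_1962 had the highest FbM level of all 5 genes, and 27.8% of the tested genes had their highest FbM level there. FcM_1944 had the lowest FcM level of all 5 genes, which held for 38.4% of the tested genes. In FbM the lowest library was FbM_1944 for 4 genes and FbM_1951 for PTGS2. In FcM the highest was FcM_1962 for IL1B, CXCL8 and TNF and FcM_1951 for IL6 and PTGS2.

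The range between libraries was above the median of the tested genes for all 5 genes in FbM and for all but IL6 in FcM. In FbM the highest library was 11.2 times the lowest for IL6, 6.57 times for IL1B, 5.55 times for CXCL8, 3.64 times for TNF and 2.55 times for PTGS2, while the median over tested genes was 1.52 times. In FcM it was 7.46 times for CXCL8, 5.997 times for IL1B, 2.95 times for PTGS2 and 2.76 times for TNF, with a median of 1.92 times over tested genes. IL6 was the exception, with 1.198 times in FcM, a range that 92.9% of the tested genes exceeded, whereas in FbM 1.32% of them exceeded its range. For CXCL8 the share exceeding its range was 3.86% in FbM and 8.77% in FcM, and for IL1B 2.93% and 11.4%. For TNF it was 7.75% and 30.0% and for PTGS2 15.4% and 27.4%, so the FcM ranges of TNF and PTGS2 were not unusual. The SD of IL6 on the log2 CPM scale was 1.82 in FbM and 0.14 in FcM, and the difference between these spreads was not tested. The coefficient of variation that edgeR estimated between libraries of one medium was 0.765 for IL6, 0.739 for IL1B, 0.709 for CXCL8, 0.573 for TNF and 0.512 for PTGS2, against a median of 0.392 over tested genes. The share of tested genes with a higher value was 8.35% for IL6, 9.20% for IL1B, 10.4% for CXCL8, 19.7% for TNF and 27.0% for PTGS2.

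**Figure D4:**
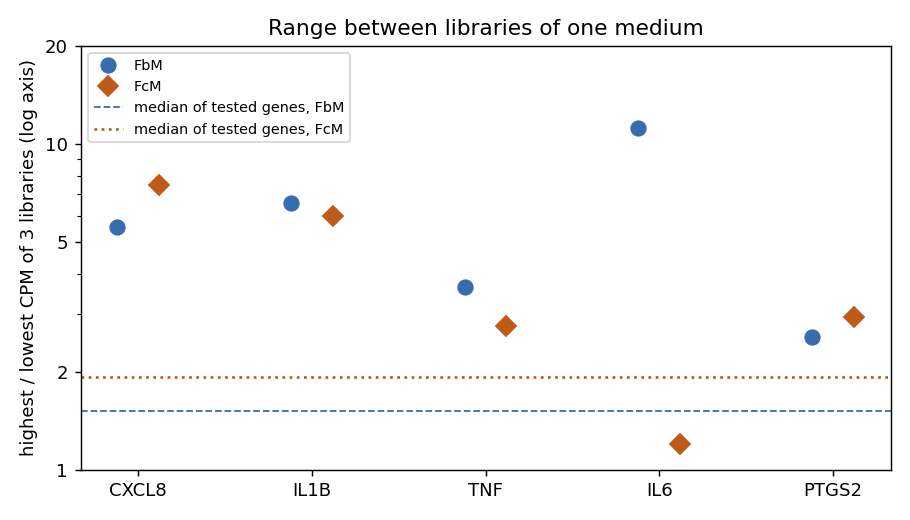
Highest over lowest CPM among the 3 libraries of a medium (log axis) for each gene in FbM (circles) and FcM (diamonds), with the median over tested genes as a dashed line for FbM and a dotted line for FcM. IL6 has both the widest range, 11.2 times in FbM, and the narrowest, 1.198 times in FcM.

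Since the transcript lengths cancel when a ratio of 2 genes is compared between libraries, the balance among the 5 genes was compared in the same way. There were 0.672, 0.439 and 1.36 IL6 reads per 100 CXCL8 reads in FbM_1944, FbM_1951 and FbM_1962. In FcM there were 31.8, 6.20 and 4.98 in FcM_1944, FcM_1951 and FcM_1962. Every FcM library thus held more IL6 for its CXCL8 than any FbM library. The mean log2 ratio of IL6 to CXCL8 was 3.75 higher in FcM than in FbM, that of IL6 to IL1B 4.75 higher and that of IL6 to TNF 2.63 higher. These 3 ratios did not overlap between the media, with FbM_1962 included. The ratio of IL6 to PTGS2 did overlap, with a difference of 1.70.

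Of the 10 ratios among the 5 genes, 7 did not overlap between the media, beside 36.0% of the ratios of these genes to any tested gene. The exact two-sided permutation p was 0.1 for each of the 7, the smallest possible, and 0.143 after Benjamini-Hochberg adjustment over the 10 ratios. This share depends strongly on the gene: it was 82.2% for ratios of IL1B to other tested genes, 47.0% for CXCL8, 31.0% for TNF, 10.9% for PTGS2 and 9.06% for IL6. Ratios of IL1B to most tested genes thus did not overlap between the media, so the 3 such ratios of IL1B, among them that of IL6 to IL1B, show nothing particular to these pairs. The ratio of IL1B to PTGS2 differed by -3.04 on the log2 scale (FcM minus FbM) and that of CXCL8 to PTGS2 by -2.05. For IL1B relative to TNF the difference was -2.12. The ratio of CXCL8 to IL1B overlapped, with a mean log2 ratio (± SD, n = 3) of 2.42 ± 0.473 in FbM against 3.42 ± 0.811 in FcM.

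**Figure D5:**
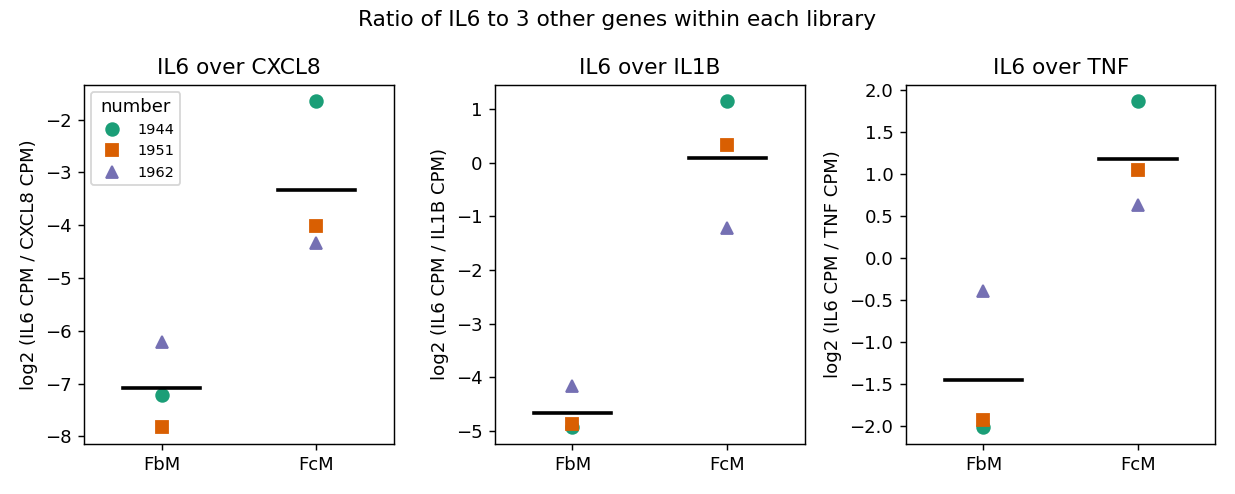
Log2 ratio of IL6 CPM to CXCL8, IL1B and TNF CPM in each library (vertical axes), with FbM and FcM side by side, symbols by number and black bars for means. In each panel the 3 FcM libraries lie above the 3 FbM libraries.

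Together the reads of the 5 genes made up 0.0215%, 0.0446% and 0.115% of the gene reads in FbM_1944, FbM_1951 and FbM_1962. They made up 0.00395%, 0.0191% and 0.0201% in FcM_1944, FcM_1951 and FcM_1962. The summed level (± SD, n = 3) was 640 ± 544 CPM in FbM against 137 ± 86.5 CPM in FcM, or 4.66 times as high, which was 2.42 without FbM_1962. CXCL8 gave most of these reads, from 55.4% in FcM_1944 to 85.3% in FbM_1951, so the sum mainly follows CXCL8. IL6 gave 0.375% to 1.05% of the reads of the 5 genes in FbM and 3.97% to 17.6% in FcM.

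The gene most like the mean profile of the 5 (Pearson correlation of log2 CPM with the mean of their standardised values, over 6 libraries, as a description) was ENSBTAG00000006616, with r = 0.97. It stood at 79.5, 75.5 and 127 CPM in FbM_1944, FbM_1951 and FbM_1962 and at 66.0, 80.0 and 78.9 CPM in FcM_1944, FcM_1951 and FcM_1962. The next was ENSBTAG00000053386, also with r = 0.97, at 43.6 to 56.1 CPM in FbM and 39.9 to 47.3 CPM in FcM. Both had their highest level in FbM_1962, as all 5 genes did, and their lowest in FcM_1944, as did 4 of the 5, while IL6 was lowest in FbM_1944. This match follows largely from choosing them by likeness. Neither gene passed the edgeR test between the media (adjusted p = 0.456 and 0.699). The mean profile stood at -0.30, -0.06 and 1.40 in FbM_1944, FbM_1951 and FbM_1962. In FcM_1944, FcM_1951 and FcM_1962 it stood at -1.06, 0.02 and 0.01, so the media overlapped. Among the 5, TNF followed the mean of the other 4 most closely (r = 0.94), then CXCL8 (0.84), PTGS2 (0.79) and IL1B (0.75), and IL6 least (0.15). These values share libraries and depth.

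Counts were taken without regard to strand. The share of sense reads among the stranded counts was 45.1% to 68.4% over the 30 values of 5 genes in 6 libraries, and the 95% exact binomial interval left out 50% in 5 of them. The highest share, for IL6 in FbM_1944, rests on 19 reads and has an interval of 43.4% to 87.4%. The library totals had 50.5% to 50.8% sense reads, so the strand of a read does not tell which strand its gene is on. In all 30 values the sense and antisense reads added up to the unstranded count, as 13 and 6 to 19 for IL6 in FbM_1944. No reads shared with an annotated gene on the other strand were thus seen. Transcripts on the other strand that are not annotated cannot be told apart from the 5 genes.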

How the data were processed

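RNA of 6 libraries, 3 per medium, was read through poly-A selection and random-hexamer cDNA, per the labels' protocols. The authors deposited raw read counts per Ensembl gene ID for each library; the submitters' processing notes name STAR, edgeR and the build ARS-UCD1.2, with tool versions not given in the sources used here. The multimapping line is 0 in each library, so genes with near-identical copies are uncertain. Reads in no feature (12.9% to 21.7% of aligned reads) and ambiguous reads (4.58% to 5.69%) were left out of library sizes.

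Unstranded counts were tested over all genes with edgeR 4.0.16 in R 4.3.3 (filterByExpr, TMM, glmQLFit, glmQLFTest, Benjamini-Hochberg); all 5 genes passed the filter. Intervals of fitted changes were computed from the quasi-likelihood F. Log2 CPM used a prior count of 2. The script was tested on simulated data. Alternatives were other scalings, DESeq2 1.42.0, limma 3.58.1 with voom, other filters, a 2-fold threshold in the test, the sense column, the number as a block, and libraries left out; combinations with FcM_1962 left out were added after seeing the data. Grouping followed the titles, in which the fibrocyte medium is shortened to FcM and in the protocol otherwise.

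The same-number libraries' deviations from their medium's mean correlated across genes at 0.40 (FbM_1944 with FcM_1944), 0.25 (FbM_1951 with FcM_1951) and 0.34 (FbM_1962 with FcM_1962). Between unlike numbers the correlations ran from -0.37 to 0.09. Deviations from a shared mean are tied together, so these values are not independent. The numbers were taken to pair the libraries, and the pairing comes from this check, not from the labels. The rule for named genes took all 5 genes and the 2 genes most like their mean profile. The genes, lists and tests were chosen with earlier results of these data known. Of 37063 genes in the RefSeq table (ARS-UCD2.0) 0 carry an Ensembl ID, so the lists of inflammation genes, glucocorticoid targets and cell type markers were not analysed here; no sequences or coordinates are given.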

Additional observations from a re-analysis of the deposited data

How the results depend on the processing

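Of the 5 genes, 0 passed in edgeR with all 6 libraries, and also under DESeq2's size factors, library size alone, limma-voom, either other filter, the sense column and the test against a 2-fold change. The count was 2 with the DESeq2 Wald test, beside 19.9% of tested genes called. It was 1 with the replicate block (IL1B), beside 1.91% of tested genes called as lower in FcM. With 1 library left out it was 0 to 1, and the 1 came without FcM_1962, beside 28.6% of tested genes. It was 2 without FbM_1962 and FcM_1962 (beside 19.3%). It was 1 with DESeq2 without FcM_1962 (beside 36.6%) and 3 with the block without FcM_1962 (beside 31.8%). Over all genes the count was 495; it was 2819 with the DESeq2 Wald test, 171 against a 2-fold change, 2 to 4394 with 1 library left out, 19, 0 and 2921 without the library pairs of FcM_1944, of FcM_1951 and of FcM_1962 (each with the FbM library of its number), 5614 with DESeq2 without FcM_1962 and 4879 with the block without it. Where that count was 0, edgeR's unadjusted p was under 0.05 for 1430 genes, and no other tool was run on those libraries. With all 6 libraries the replicate block changed the call of IL1B alone among the 5; without FcM_1962 adding the block gained the calls of IL6 and CXCL8. The fitted change of PTGS2 turned from -0.29 to 0.24 without FbM_1962, 0.01 without FcM_1944, 0.35 without FbM_1962 and FcM_1962 and 0.15 with the block without FcM_1962; with 1 library left out it ranged from -0.77 to 0.24. IL6, CXCL8, IL1B and TNF kept their sign in 20 alternatives each. For CXCL8 and IL1B, groups without overlap fix the sign in advance, and the IL6 value fell to 0.07 without FbM_1944. With 1 library left out, the summed level in FbM over that in FcM ranged from 2.42 to 6.17. The causes of these differences were not tested. Depth limits IL6 in FbM_1944 and FbM_1951 most, at 19 and 32 reads.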
